A study of Homo sapiens with 6 samples.

Results

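The genes described here are 30 genes of cholesterol synthesis, uptake, transport and export, taken by name from the 58051 genes in the count table and followed in A172 cells, an established human glioblastoma line. They comprise 7 enzymes of the mevalonate pathway, 11 enzymes from farnesyl diphosphate to cholesterol, and 5 genes of the SREBP transcription factors and their control. The rest are 4 genes of uptake and movement inside the cell, and 3 genes of export and receptor turnover. The control cells expressed GFP from a lentiviral vector, and the others expressed RBFOX1, an RNA-binding protein known as a splicing regulator, from the same kind of vector. Each group held 3 libraries, which the study's methods call biological replicates. The virus was made in HEK293T packaging cells, and the A172 cells were kept in medium with fetal bovine serum, which brings lipoproteins. Whether the stable lines were single clones or pools, or the replicates separate transductions, is not given in the sources used here. The p-values measure the spread between these libraries only. The experiment asked whether giving RBFOX1 to glioblastoma cells, where it is lowly expressed, restores transcripts whose stability depends on it, and cholesterol genes were not its subject.

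Cholesterol is built from acetyl-CoA by way of mevalonate, farnesyl diphosphate, squalene and lanosterol, and the late steps remove methyl groups and move double bonds on the sterol rings. The SREBP factors switch on most of these enzymes. When membrane cholesterol is low, SCAP escorts SREBP from the endoplasmic reticulum to the Golgi, where it is cut and released to the nucleus. When cholesterol is plentiful, the INSIG proteins hold SCAP back, while oxysterols activate the LXR receptors, which induce the exporters ABCA1 and ABCG1. In the brain cholesterol is made locally, since lipoproteins of the blood do not cross the blood-brain barrier, and glioblastoma cells are known for relying on cholesterol taken up from their surroundings.

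The libraries held 7433414 to 23249221 counts on genes, with RBFOX1 replicate 1 the shallowest and GFP replicate 1 the deepest. RBFOX1 itself had 4, 0 and 1 counts in the GFP libraries and 10276, 16467 and 21451 in the RBFOX1 libraries, as labelled. GFP replicate 1 stood apart from its group, since the chi-square of its counts over its degrees of freedom was 8.90 and 9.07 against GFP replicates 2 and 3, which gave 1.66 against each other. RBFOX1 replicate 1 stood apart less, at 3.01 and 2.915 against RBFOX1 replicates 2 and 3, which gave 1.979 against each other. The value also rises with depth, and the part of depth was not tested. The glioma line markers VIM and CD44 were abundant, while the astrocyte markers GFAP and S100B had at most 4 counts in any library. Summed over a list, the 8 glioma line markers held 77630 to 79170 normalized counts in GFP and 51640 to 52340 in RBFOX1 libraries. Most of that sum is VIM and CD44, which fell, whereas NES (log2 fold change 0.60, edgeR adjusted p = 6.1e-09) and SOX2 (2.53, edgeR adjusted p = 1.48e-10) of the same list rose. The 3 endothelial markers held 10.3 to 12.8 and 95.9 to 109. The leukocyte marker PTPRC averaged 16.1 ± 6.08 and 60.3 ± 9.95 (SD, n = 3), with CD3E at 0. The 3 epithelial markers held 27.4 to 37.4 and 41.7 to 64.8, the 3 neuronal markers 5.27 to 9.34 and 3.33 to 9.13, and the 3 hepatocyte markers 0 to 1.21 and 0 to 3.65, with albumin at 0. All 15 genes of a proliferation list rose, with a median log2 fold change of 1.38, MKI67 by 2.06 (SE 0.11, edgeR adjusted p = 6.35e-12) and RRM2 by 2.21 (SE 0.082, edgeR adjusted p = 1.74e-14). The part of any of these shifts in the results on cholesterol genes was not tested, and in bulk RNA a change in the make-up of the culture cannot be told apart from a change in RNA per cell.

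The cholesterol genes split in RBFOX1 cells: 5 were higher, 14 were lower and 10 did not pass the test, among the 29 that had at least 10 counts over the 6 libraries. The largest differences, each close to 2-fold, were the rise of HMGCS1 at the entry to the pathway and the falls of MSMO1, DHCR7, STARD4 and ABCA1. The genes that rose were HMGCS1, SQLE, EBP, SREBF1 and SREBF2. Those that fell were MVD, IDI1, FDFT1, LSS, CYP51A1, MSMO1, SC5D, DHCR7, SCAP, INSIG1, STARD4, NPC1, ABCA1 and ABCG1. Calls were made with edgeR's quasi-likelihood test at an adjusted p under 0.05, over all 20536 genes tested. Of those, 46.6% were called, 23.7% as higher and 22.9% as lower. Since most cholesterol genes are well expressed, the nearer background is the 12012 genes that averaged 50 or more normalized counts (counts scaled with the TMM method to a common library size). Of those, 63.8% were called, 30.4% as higher and 33.4% as lower. Among the 28 cholesterol genes above that level 67.9% were called, so the number called is near the background. The median log2 fold change of the 29 was −0.22, beside 0.0051 over all genes tested and −0.020 over the 12012. The RBFOX1 libraries lay wholly above the GFP libraries for 5 of the 29 genes and wholly below for 14, and such a gap was found in 53.4% of all genes tested and in 68.6% of the well-expressed ones. As a share of all counts on genes, the 30 genes held 0.245 to 0.249% in GFP and 0.197 to 0.198% in RBFOX1 libraries, while the 18 enzymes alone held 0.111 to 0.115% and 0.105 to 0.107%. The share of the 30 leans on ABCA1, the member with the most counts, which fell from a mean of 8759 to 4229 normalized counts.

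**Figure D1:**
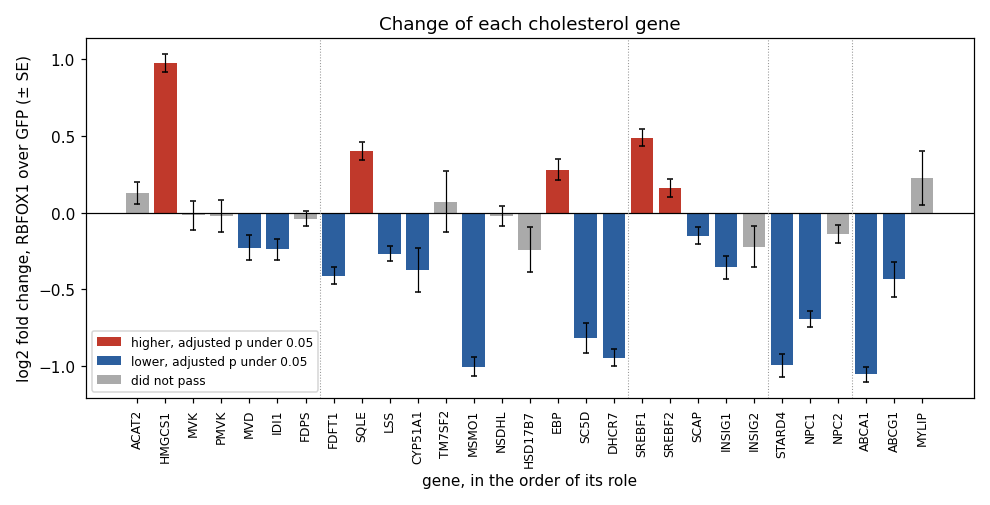
Bars give the log2 fold change of RBFOX1 over GFP for the 29 cholesterol genes tested, with ± 1 SE, ordered from synthesis to export and separated by dotted lines into mevalonate steps, sterol steps, SREBP control, transport and export. Red bars rose and blue bars fell at an adjusted p under 0.05, and grey bars did not pass; HMGCS1 reaches 0.97 while MSMO1, DHCR7, STARD4 and ABCA1 lie between −0.94 and −1.05.

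The introduced protein binds RNA at the hexamer written TGCATG in DNA letters, so the 3′ UTRs of the cholesterol genes (GENCODE canonical transcripts) were searched for it on the transcript strand. It occurred in 6 of the 29 tested members (20.7%), compared with 36.5% of the 14073 protein-coding genes tested, and the members' 3′ UTRs were shorter, with a median of 964 nt against 1294 nt. The 6 were HMGCS1 and SREBF2, which rose, LSS, SC5D and STARD4, which fell, and INSIG2, which did not pass. The 23 members without the hexamer held 3 that rose and 11 that fell. Over all protein-coding genes tested, 1843 of the 5131 with the hexamer were higher and 1378 lower, and 2423 of the 8942 without it were higher and 2678 lower. A match is a description of these letters and not evidence of binding. Introns were not searched, and the part of the hexamer in any change was not tested. Matches of the member that rose most and of the 3 that fell (2 of the 3 in STARD4) are printed as examples. Each run is 30 bases of GRCh38 read 5′ to 3′ on the strand of the gene, with the hexamer in capitals.
HMGCS1, hexamer at chr5:43290848-43290853, minus strand, 278 nt after the stop codon: tggccatttgtaTGCATGatgtttggtttt
HMGCS1, hexamer at chr5:43289593-43289598, minus strand, 1533 nt after the stop codon: gtggcaaaatggTGCATGtaatacttttgc
STARD4, hexamer at chr5:111498929-111498934, minus strand, 952 nt after the stop codon: tagtgtttcaagTGCATGgtagtttgatct
STARD4, hexamer at chr5:111497004-111497009, minus strand, 2877 nt after the stop codon: aagtgatactttTGCATGaaatattagttt
SC5D, hexamer at chr11:121310118-121310123, plus strand, 2606 nt after the stop codon: tggattttacagTGCATGcaggttatttat
LSS, hexamer at chr21:46189942-46189947, minus strand, 1157 nt after the stop codon: tctggtctggctTGCATGgatgtagggctt

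Among the 7 enzymes from acetyl-CoA to farnesyl diphosphate, HMGCS1 rose, IDI1 and MVD fell and 4 did not pass. The early pathway thus did not move as a block (median log2 fold change −0.024). Of the 7, 42.9% were called, beside 46.6% of all genes tested and 63.8% of the 12012 well-expressed ones. HMGCS1 (GRCh38 chr5:43287470-43313512, minus strand), the cytosolic synthase that joins acetyl-CoA to acetoacetyl-CoA, had 768, 849 and 835 normalized counts in GFP replicates 1, 2 and 3 and 1565, 1629 and 1603 in RBFOX1 replicates 1, 2 and 3. Every RBFOX1 library lay far above every GFP library, and the mean was 1.97-fold higher (log2 fold change 0.97 ± 0.057, edgeR adjusted p = 1.89e-11; here and below the error is the SE). It was the sole enzyme of this stretch that rose. IDI1 (chr10:1039152-1049119, minus strand), which interconverts the isoprene building blocks, had 993, 888 and 843 in GFP and 740.1, 779 and 794 in RBFOX1 libraries. The groups did not overlap, and the fall was small (log2 fold change −0.24 ± 0.067, edgeR adjusted p = 0.00633). MVD, the decarboxylase that makes isopentenyl diphosphate, had 511, 426 and 513 in GFP and 386, 415 and 436 in RBFOX1 libraries, with GFP replicate 2 inside the RBFOX1 range (log2 fold change −0.23 ± 0.082, edgeR adjusted p = 0.0275). Its call was lost without GFP replicate 1 (adjusted p = 0.1), GFP replicate 3 (0.109), RBFOX1 replicate 1 (0.122) or RBFOX1 replicate 2 (0.0776) in the edgeR fit.

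The 4 mevalonate enzymes that did not pass were FDPS, MVK, PMVK and ACAT2. FDPS, which makes farnesyl diphosphate and was among the most abundant of these transcripts, had 2979, 2823 and 2729.5 normalized counts in GFP and 2709.9, 2821 and 2779.6 in RBFOX1 libraries (log2 fold change −0.038 ± 0.049, edgeR adjusted p = 0.57, 95% interval −0.14 to 0.059). Its interval leaves out any change as large as that of HMGCS1. MVK, the mevalonate kinase, had 248.9, 216 and 239 in GFP and 259, 222 and 226 in RBFOX1 libraries (log2 fold change −0.018 ± 0.093, edgeR adjusted p = 0.899, 95% interval −0.20 to 0.17). PMVK, the next kinase, ranged more widely, from 319 to 445 in GFP and from 328 to 389 in RBFOX1 libraries (log2 fold change −0.024 ± 0.10, edgeR adjusted p = 0.881). ACAT2, the thiolase of the opening step, had 591, 551 and 531 in GFP and 573, 628 and 625 in RBFOX1 libraries (log2 fold change 0.13 ± 0.069, edgeR adjusted p = 0.142, 95% interval −0.0072 to 0.26). Of the single-library omissions, the one of GFP replicate 1 brought ACAT2 past the threshold (edgeR adjusted p = 0.0276).

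**Figure D2:**
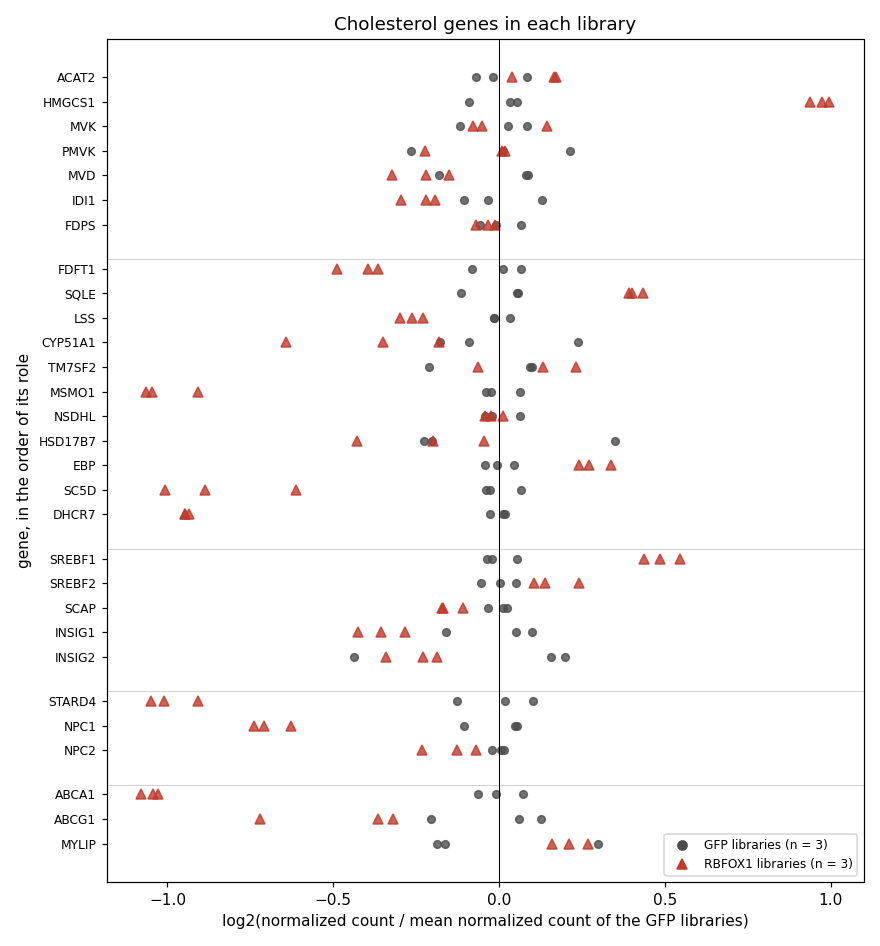
Each row is a cholesterol gene and each point a library, placed by the log2 ratio of its normalized count to the mean of the GFP libraries (grey circles, GFP, n = 3; red triangles, RBFOX1, n = 3). The red triangles of HMGCS1, SQLE, EBP, SREBF1 and SREBF2 lie to the right of all grey circles, those of MSMO1, SC5D, DHCR7, STARD4, NPC1 and ABCA1 well to the left, and GFP replicate 1 is the lone low circle of INSIG2.

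Of the 11 enzymes that turn farnesyl diphosphate into cholesterol, 2 rose and 6 fell (median log2 fold change −0.27). That is 72.7% called, beside 46.6% of all genes tested and 63.8% of the 12012 well-expressed ones. The falls of MSMO1, DHCR7 and SC5D were the largest. MSMO1 (chr4:165327667-165343164, plus strand), the monooxygenase that begins removal of the methyl groups next to the hydroxyl of the sterol, had 1357, 1279.9 and 1265 normalized counts in GFP and 622, 694 and 630.1 in RBFOX1 libraries. DHCR7 (chr11:71428193-71452868, minus strand), the reductase that makes cholesterol from its last precursor, had 1469, 1510.0 and 1515 in GFP and 784, 777 and 776 in RBFOX1 libraries. SC5D (chr11:121292681-121313410, plus strand), the desaturase just before it, had 355, 333 and 329.7 in GFP and 169, 222 and 184 in RBFOX1 libraries. In all 3 genes every RBFOX1 library lay below every GFP library by a wide margin. MSMO1 was 2.004-fold lower (log2 fold change −1.003 ± 0.062, edgeR adjusted p = 4.13e-11), DHCR7 1.92-fold lower (log2 fold change −0.94 ± 0.054, edgeR adjusted p = 1.43e-11) and SC5D 1.76-fold lower (log2 fold change −0.82 ± 0.096, edgeR adjusted p = 5.76e-07).

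At the squalene steps neighbouring enzymes moved in opposite directions. FDFT1 (chr8:11795573-11839395, plus strand), squalene synthase, had 2159, 2389 and 2301 normalized counts in GFP and 1627, 1773 and 1734 in RBFOX1 libraries, a 1.33-fold fall (log2 fold change −0.41 ± 0.054, edgeR adjusted p = 2.57e-06). SQLE (chr8:124998497-125022283, plus strand), the squalene monooxygenase that acts on its product, had 1025, 911 and 1026 in GFP and 1302, 1332 and 1295 in RBFOX1 libraries, a 1.32-fold rise (log2 fold change 0.40 ± 0.059, edgeR adjusted p = 8.43e-06). Neither gene's groups overlapped. LSS (chr21:46188141-46228824, minus strand), which closes the rings to give lanosterol, had 1987, 1921 and 1920.5 in GFP and 1656, 1579 and 1619 in RBFOX1 libraries and fell 1.20-fold (log2 fold change −0.27 ± 0.050, edgeR adjusted p = 0.000154). EBP (chrX:48521799-48528716, plus strand), the isomerase that shifts a ring double bond, had 517, 487 and 499 in GFP and 604, 592 and 633 in RBFOX1 libraries and rose 1.21-fold (log2 fold change 0.28 ± 0.066, edgeR adjusted p = 0.00148). SQLE thus rose between enzymes that fell, FDFT1 before it and LSS after it.

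CYP51A1, the lanosterol demethylase, was near the limit of the call. It had 140.2, 105 and 112 normalized counts in GFP and 76.2, 93.3 and 105 in RBFOX1 libraries, with the groups only just apart at 105.1 and 105.0 (log2 fold change −0.37 ± 0.14, edgeR adjusted p = 0.0379). The call was lost without GFP replicate 1 (log2 fold change −0.20, edgeR adjusted p = 0.292), RBFOX1 replicate 1 (0.155) or RBFOX1 replicate 2 (0.1). Its pseudogene CYP51A1P1, which can share reads with it, moved the same way (log2 fold change −0.74, edgeR adjusted p = 0.043) at 6 to 38 counts per library, and CYP51A1P2 had 1 to 21 counts. The listed pseudogenes of FDPS and IDI1 had at most 4 counts in any library. Unnamed protein-coding genes on the same strand share 2844 and 2827 bp of the 4171 bp of CYP51A1 exon. Another shares 644 of the 1768 bp of EBP exon, and a microRNA gene shares 72 bp with NPC2. These overlapping genes come from the later annotation and are absent from the count table. Their part in the levels and calls of CYP51A1, EBP and NPC2 was not tested. NSDHL, the dehydrogenase of the methyl removal, had 582, 541 and 549 in GFP and 548, 541 and 562 in RBFOX1 libraries (log2 fold change −0.022 ± 0.066, edgeR adjusted p = 0.82, 95% interval −0.15 to 0.11), an interval that leaves out a fall like that of MSMO1, its partner in the same reaction sequence. HSD17B7, the reductase that completes that sequence, had 190.0, 129.6 and 127 in GFP and 111, 144 and 129.7 in RBFOX1 libraries (log2 fold change −0.24 ± 0.15, edgeR adjusted p = 0.201), and its log2 fold change was 0.024 without GFP replicate 1, the one high library. The transcribed pseudogene HSD17B7P2, with 15 to 60 counts, was lower in RBFOX1 cells (log2 fold change −0.67, edgeR adjusted p = 0.0146). TM7SF2, a sterol reductase, was the lowest of the tested members, at 34.6, 28.0 and 34.8 in GFP and 38.1, 31.1 and 35.6 in RBFOX1 libraries (log2 fold change 0.073 ± 0.20, edgeR adjusted p = 0.827), and shares 18 bp of exon with VPS51 on the same strand.

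In the control circuit of the pathway the SREBP genes were higher and their retention protein INSIG1 was lower. SREBF1 (chr17:17810399-17837002, minus strand) encodes the SREBP factor best known for fatty acid synthesis, and had 922, 912 and 970.2 normalized counts in GFP and 1308, 1362 and 1265 in RBFOX1 libraries. It rose 1.40-fold with no overlap (log2 fold change 0.49 ± 0.056, edgeR adjusted p = 4.14e-07). SREBF2 (chr22:41833105-41907306, plus strand), which encodes the factor best known for cholesterol synthesis, had 757, 815 and 788 in GFP and 929, 846 and 867 in RBFOX1 libraries. That rise was small (log2 fold change 0.16 ± 0.061, edgeR adjusted p = 0.0374) and was lost without GFP replicate 1 (edgeR adjusted p = 0.0766), GFP replicate 3 (0.0738), RBFOX1 replicate 1 (0.105) or RBFOX1 replicate 3 (0.069). INSIG1 (chr7:155297776-155310235, plus strand) had 887, 742 and 859 in GFP and 617, 681 and 647 in RBFOX1 libraries and fell 1.28-fold (log2 fold change −0.36 ± 0.072, edgeR adjusted p = 0.000347).

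SCAP, the escort of SREBP, had 1175, 1137 and 1183 normalized counts in GFP and 1034, 1036 and 1079 in RBFOX1 libraries. The groups did not overlap, but the difference was small (log2 fold change −0.15 ± 0.054, edgeR adjusted p = 0.0294), and its call was lost without GFP replicate 3 (edgeR adjusted p = 0.096) or without RBFOX1 replicate 1 (0.0903), 2 (0.102) or 3 (0.0505). INSIG2, the second retention protein, had 217, 327 and 337 in GFP and 250.3, 258 and 232 in RBFOX1 libraries (log2 fold change −0.22 ± 0.13, edgeR adjusted p = 0.188). GFP replicate 1 was the low library there, and without it INSIG2 was lower in RBFOX1 cells (log2 fold change −0.43, edgeR adjusted p = 0.000328).

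SREBP factors bind sterol elements in promoters together with NF-Y, which binds CCAAT, and SREBP-1 can also bind E-boxes. The promoter windows of the RefSeq table (GRCh38.p14, from 250 bases before to 50 after an annotated start, with any listed start of a gene counted) were therefore searched on both strands, and 26 of the 30 genes had an entry. The entries missing were ABCG1, ACAT2, FDFT1 and SQLE. The sterol element TCACNCCAC was in 1 of the 26 (3.85%), beside 1.4% of the 12625 genes tested that had an entry and 1.39% of all genes in the table. Its inner part CACNCCAC, which every match of the longer form contains, was in 5 (19.2%), beside 7.81% of the genes tested and 7.05% of all. The CCAAT box was in 19 (73.1%), beside 42.5% and 39.7%, and the E-box CACGTG in 5 (19.2%), beside 11.9% and 8.77%. These are descriptions of letters in a fixed window and say nothing of binding in these cells. CCAAT boxes stood in the promoters of HMGCS1, which rose, and of MSMO1, DHCR7 and STARD4, which fell. One for each gene is printed for that reason, with the sterol element of SREBF2 and the E-boxes of INSIG1 and ABCA1. Each run is 30 bases read in the direction of the gene, with the motif in capitals (ATTGG is CCAAT on the other strand). The position is that of the motif's leftmost base, counted from a start annotated in RefSeq. That start can lie inside the gene span given above, as in DHCR7 and INSIG1.
HMGCS1, CCAAT at −100, chr5:43313495-43313524, minus strand: ctaccggccgcgATTGGctgtgggagccac
MSMO1, CCAAT at −76, chr4:165327581-165327610, plus strand: caactgcacagaCCAATcaccgcgccgaga
DHCR7, CCAAT at −94, chr11:71448470-71448499, minus strand: caggctcctcgaCCAATcacggggcgcgga
STARD4, CCAAT at −130, chr5:111512648-111512677, minus strand: ctcccgcgccagCCAATccgaacaagcgca
SREBF2, TCACNCCAC at −133, chr22:41832962-41832991, plus strand: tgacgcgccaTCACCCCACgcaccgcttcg
INSIG1, CACGTG at −55, chr7:155297811-155297840, plus strand: gccgggcaggctCACGTGatgcgggccccg
ABCA1, CACGTG at −147, chr9:104928285-104928314, minus strand: gggccccggctcCACGTGctttctgctgag

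Of the genes that move cholesterol inside the cell, STARD4 and NPC1 fell, NPC2 did not pass and NPC1L1 was too low to test. STARD4 (chr5:111496033-111512590, minus strand), a soluble carrier that shuttles cholesterol between membranes, had 839.6, 716 and 792 normalized counts in GFP and 388, 417 and 378 in RBFOX1 libraries. NPC1 (chr18:23506184-23586506, minus strand), the membrane protein through which cholesterol leaves the lysosome, had 3878, 4321 and 4331 in GFP and 2704, 2555 and 2502 in RBFOX1 libraries. Both fell with a wide gap between the groups, STARD4 1.99-fold (log2 fold change −0.99 ± 0.075, edgeR adjusted p = 9.6e-10) and NPC1 1.62-fold (log2 fold change −0.69 ± 0.054, edgeR adjusted p = 1.54e-09). NPC2, the soluble lysosomal protein that hands cholesterol to NPC1, had 1015, 1008 and 990.3 in GFP and 854, 957 and 919.5 in RBFOX1 libraries. Its libraries did not overlap, yet it missed the threshold (log2 fold change −0.14 ± 0.059, edgeR adjusted p = 0.0629, 95% interval −0.25 to −0.022) and passed without RBFOX1 replicate 2 (edgeR adjusted p = 0.0499). NPC1L1, the intestinal cholesterol importer, had 0, 1 and 1 counts in GFP and 0, 0 and 1 in RBFOX1 libraries, at or under the limit of 3 counts that a count of 0 allows for counting error, and was not tested.

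Both cholesterol exporters fell. ABCA1 (chr9:104781006-104928155, minus strand), which loads cholesterol and phospholipid onto lipid-poor apolipoproteins, had 8702, 9201 and 8375 normalized counts in GFP and 4292, 4249 and 4147 in RBFOX1 libraries. This was the largest fall among the 29 members tested, 2.07-fold (log2 fold change −1.05 ± 0.049, edgeR adjusted p = 6.41e-13). ABCG1 (chr21:42199689-42297244, plus strand), which moves cholesterol to mature high-density lipoprotein, was far less abundant, with 224, 235 and 186 in GFP and 131, 172.1 and 167 in RBFOX1 libraries, and fell 1.35-fold (log2 fold change −0.43 ± 0.11, edgeR adjusted p = 0.00367). The groups of neither gene overlapped. MYLIP, the ubiquitin ligase that marks lipoprotein receptors for destruction and, like the exporters, is a known LXR target, had 43.7, 44.4 and 61.1 in GFP and 59.9, 55.5 and 57.5 in RBFOX1 libraries, with 1 GFP library above all RBFOX1 libraries (log2 fold change 0.23 ± 0.17, edgeR adjusted p = 0.318, 95% interval −0.12 to 0.57).

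Levels were compared between genes as CPM (counts scaled to library size) per kilobase of annotated exon, a scale that depends on the length of all annotated exons of each gene. In GFP cells ABCA1 and FDPS led with means of 55.6 and 55.1, and their libraries overlapped (53.2 to 58.4 and 52.9 to 57.7). MSMO1 (32.9), FDFT1 (32.4) and NPC1 (31.0) followed, MSMO1 overlapping FDFT1 and FDFT1 overlapping NPC1. In RBFOX1 cells FDPS stood alone at 53.7 (52.5 to 54.6), while ABCA1 at 26.9 overlapped PMVK at 26.4. HMGCS1 moved from place 18 of the 30 (8.88) to place 10 (17.4). MSMO1 moved the other way, from place 3 to place 12 (16.4), and DHCR7 from place 13 (15.7) to place 18 (8.16). These places are approximate, since each of these genes overlapped a neighbour in the order in both groups. STARD4 went from 9.92 to 5.00 on this scale. In both groups TM7SF2 was the lowest tested member, at 0.686 and 0.738.

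**Figure D3:**
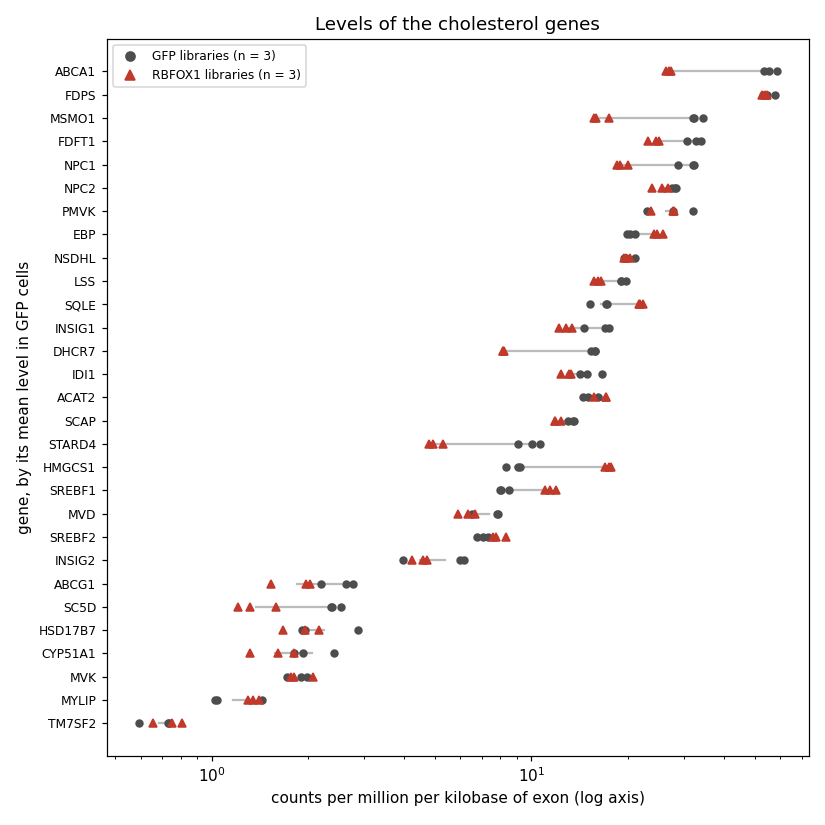
CPM per kilobase of exon, on a log axis, is drawn for each library of the 29 cholesterol genes tested (grey circles, GFP; red triangles, RBFOX1; n = 3 each), ordered by the mean in GFP cells, with a line joining the group means. FDPS stays near 54 to 55 while ABCA1, level with it in GFP cells, drops to 26.9, and HMGCS1 takes the largest step to the right in RBFOX1 cells.

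Ratios of counts within a library do not depend on scaling between libraries, and they show the shift in balance directly. For each count of DHCR7 there were 0.523 to 0.562 counts of HMGCS1 in GFP and 1.998 to 2.096 in RBFOX1 libraries. HMGCS1 over MSMO1 ran from 0.566 to 0.663 in GFP and from 2.35 to 2.54 in RBFOX1 libraries, and SQLE over MSMO1 from 0.712 to 0.811 and from 1.92 to 2.09. HMGCS1 thus had fewer counts than DHCR7 and MSMO1 in every GFP library and more in every RBFOX1 library, in pairs chosen for their opposite changes. SREBF1 over SREBF2 ran from 1.12 to 1.23 and from 1.41 to 1.61, NPC1 over NPC2 from 3.82 to 4.37 and from 2.67 to 3.17, and ABCA1 over ABCG1 from 38.8 to 44.9 and from 24.7 to 32.9, none of them overlapping between groups. INSIG1 over INSIG2 did overlap, at 2.27 to 4.09 and 2.46 to 2.79.

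The pathways that border on cholesterol synthesis were mixed too. Over 7 lists with 90 genes tested, 20 rose and 38 fell (64.4% called, beside 46.6% of all genes tested, with a median log2 fold change of −0.11). Of the 76 that averaged 50 or more normalized counts, 15 rose and 38 fell (69.7% called, beside 63.8% of all genes at that level). In fatty acid synthesis, the other pathway under SREBP control, 3 of 16 rose and 7 fell (62.5% called). ACLY, which makes the acetyl-CoA that both pathways use, rose (log2 fold change 0.41 ± 0.046, edgeR adjusted p = 3.43e-07), as did FASN, the fatty acid synthase (log2 fold change 0.52 ± 0.082, edgeR adjusted p = 2.3e-05). LPIN1, a phosphatidate phosphatase (log2 fold change −1.03 ± 0.048, edgeR adjusted p = 6.15e-13), and ELOVL6, a fatty acid elongase (log2 fold change −0.99 ± 0.077, edgeR adjusted p = 1.43e-09), fell by about as much as MSMO1. On the isoprenoid branches that leave at farnesyl diphosphate, 3 of 14 rose and 7 fell (71.4% called). The 7 came down to 4 without GFP replicate 1, GFP replicate 2 or RBFOX1 replicate 2, to 3 without RBFOX1 replicate 1 or 3, and to 5 without GFP replicate 3, and DESeq2 or scaling by library totals gave 3. Within the coenzyme Q branch COQ2 (0.58 ± 0.10, edgeR adjusted p = 9.97e-05) and PDSS1 (0.52 ± 0.12, edgeR adjusted p = 0.000868) rose, and PDSS2, the partner subunit of PDSS1, fell (−0.65 ± 0.086, edgeR adjusted p = 2.69e-06). PGGT1B, a subunit of a protein prenyltransferase, fell (−0.33 ± 0.094, edgeR adjusted p = 0.00665), but did not pass without RBFOX1 replicate 3 (−0.21, edgeR adjusted p = 0.0933).

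Among 12 genes of SREBP processing and turnover, 8 fell and 1 rose (median −0.30). Of the 12, 75% were called, beside 46.6% of all genes tested and 63.8% of those averaging 50 or more normalized counts. SPRING1, which is needed for the cleavage of SREBP (−0.65 ± 0.062, edgeR adjusted p = 3.29e-08), and TRIB1, a pseudokinase tied to lipid control (−0.97 ± 0.086, edgeR adjusted p = 1.12e-08), fell most. MBTPS2, a protease that cuts SREBP, was the one that rose (0.27 ± 0.092, edgeR adjusted p = 0.02), and its call was lost without GFP replicate 1 (0.13, edgeR adjusted p = 0.114), RBFOX1 replicate 1 (0.0707) or RBFOX1 replicate 2 (0.0573). Of 10 genes of oxysterols and LXR tested, 2 rose and 2 fell (40% called). The 2 that rose became 1 without RBFOX1 replicate 2 or 3. NR1H3, which encodes LXR-alpha, rose (0.77 ± 0.10, edgeR adjusted p = 2.8e-06) while its targets ABCA1 and ABCG1 fell. NR1H2, which encodes LXR-beta (−0.21 ± 0.054, edgeR adjusted p = 0.00273), and RXRA, the partner of both (−0.57 ± 0.077, edgeR adjusted p = 3.41e-06), fell.

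For cholesterol esters and storage, 4 of 9 genes tested fell and 2 rose (66.7% called, beside 46.6% of all genes tested). LIPA, the acid lipase that frees cholesterol in the lysosome upstream of NPC1 (−1.02 ± 0.054, edgeR adjusted p = 4.1e-12), and NCEH1, a neutral ester hydrolase (−0.84 ± 0.073, edgeR adjusted p = 7.72e-09), fell. LCAT, which esterifies cholesterol on lipoproteins (0.74 ± 0.17, edgeR adjusted p = 0.00128), and DGAT2, which makes triglyceride (0.32 ± 0.10, edgeR adjusted p = 0.0147), rose, the latter not without RBFOX1 replicate 3 (0.21, edgeR adjusted p = 0.149). Of 9 lipoprotein receptor genes tested, 4 rose and 3 fell (77.8% called). Of those that rose only LRP1 averaged 50 or more normalized counts. LRP8 (−0.93 ± 0.066, edgeR adjusted p = 3.49e-10) and VLDLR (−0.52 ± 0.095, edgeR adjusted p = 0.000118), receptors for reelin and for lipoproteins, fell. LRP1 rose by 0.30 ± 0.12 (edgeR adjusted p = 0.0417) with overlapping groups, and did not pass without GFP replicate 1 (0.10, edgeR adjusted p = 0.12), RBFOX1 replicate 1 (0.167) or RBFOX1 replicate 2 (0.118). Of 20 other sterol carriers, 5 rose and 7 fell, led among those averaging 50 or more normalized counts by TMEM97 (0.79 ± 0.086, edgeR adjusted p = 2.13e-07), which binds NPC1, and OSBPL8 (0.45 ± 0.051, edgeR adjusted p = 4.35e-07) upward, and by the lipid transfer genes OSBPL10 (−1.03 ± 0.077, edgeR adjusted p = 8.2e-10) and GRAMD1B (−0.82 ± 0.087, edgeR adjusted p = 1.44e-07) downward.

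**Figure D4:**
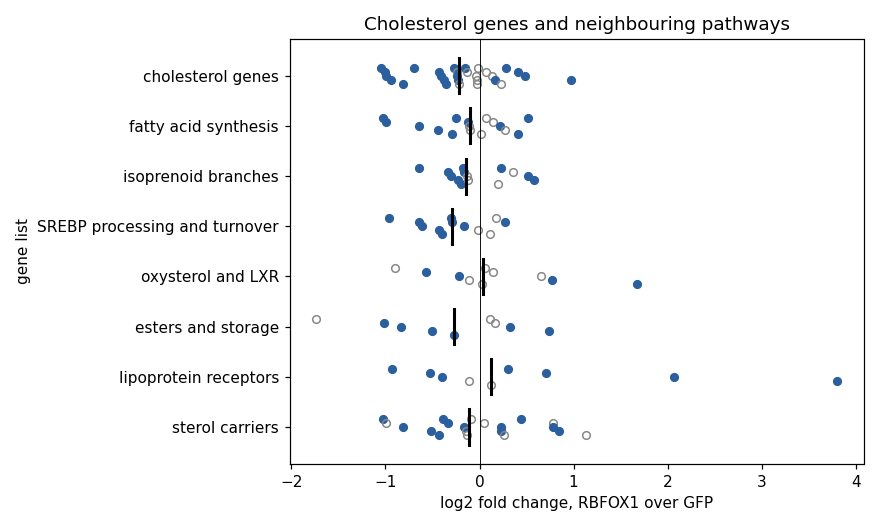
Each circle is a gene, placed by its log2 fold change of RBFOX1 over GFP, for the cholesterol genes and 7 neighbouring lists. Filled circles passed an adjusted p under 0.05, open circles did not, and the black line is the median of a list; the medians lie between −0.30 and 0.12, and every list holds genes on both sides of 0.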

How the data were processed

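RNA of 3 GFP and 3 RBFOX1 libraries was rRNA-depleted and sequenced as read pairs with strand kept. The authors aligned reads to GRCh38 with HISAT2 and deposited gene counts made with HTSeq-count in intersection-strict mode, without normalization. Reads shared by genes or of low mapping quality were left out there, which lowers genes with close copies. The summary lines (38.1 to 48% of read pairs) were kept out of library sizes and tests. The authors also deposited a DESeq2 table with a mean signal, log2 fold change and its error, a score (the Wald statistic), p-value and adjusted p-value per gene, which was not used.

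Counts were normalized with TMM. RBFOX1 and GFP were compared in R 4.3.3 by the two-sided quasi-likelihood test of edgeR 4.0.16, over genes with at least 10 counts in all, with Benjamini-Hochberg adjustment. A normalized count is scaled to an effective library of 13883214. The SE is the log2 fold change over the root of the F statistic, and 95% intervals are ± 1.96 SE. DESeq2 1.42.0, limma-voom (limma 3.58.1), other scalings and filters, a replicate block, a fold minimum and the omission of each library were alternatives. Thinned counts and the background of genes with at least 50 normalized counts were added after seeing the data. The procedure was tested on simulated data. The genes and lists were chosen with earlier results of these data known. Named genes were the 30 members, their pseudogenes and same-strand neighbours, RBFOX1, and per list the 2 largest rises and falls among called genes with a mean of at least 50. Exons, 3′ UTRs of canonical transcripts and coordinates came from GENCODE 44, later than the counting annotation (98.1% of identifiers matched). Some items of the marker lists and sequence matches are not reported here.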

Additional observations from a re-analysis of the deposited data

How the results depend on the processing

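For 15 of the 19 called members (HMGCS1, IDI1, FDFT1, SQLE, LSS, MSMO1, EBP, SC5D, DHCR7, SREBF1, INSIG1, STARD4, NPC1, ABCA1 and ABCG1) direction and call held under every alternative fit, and the range over the omission of single libraries was 0.93 to 1.00 for HMGCS1, −1.05 to −0.96 for MSMO1, −0.95 to −0.93 for DHCR7, −1.06 to −0.93 for STARD4 and −1.08 to −1.02 for ABCA1 (log2 fold change). MVD, CYP51A1, SREBF2 and SCAP kept their direction and lost the call in some: the adjusted p ran from 0.00328 to 0.122 for MVD, 0.0163 to 0.292 for CYP51A1, 0.00797 to 0.105 for SREBF2 and 0.0125 to 0.148 for SCAP over all alternatives, DESeq2 included, where all 4 missed (0.0798, 0.131, 0.0779 and 0.0922). ACAT2 ran from 0.0276 to 0.363, INSIG2 from 0.000328 to 0.584 and NPC2 from 0.0262 to 0.24. The cause of these changes was not tested, beyond the loss of a library where one was left out. A minimum absolute log2 fold change of 0.5 left 1 of the 29 members tested higher and 6 lower. Of the 20536 genes tested it left 2983 and 2407, and of the 90 tested genes of neighbouring pathways 11 and 16. When each library was left out in turn, 4 to 5 members were higher and 11 to 14 lower, 4288 to 4777 and 4038 to 4530 of all genes, and 15 to 21 and 31 to 37 of the neighbouring genes. With the replicate number as a block, 4 members were higher and 12 lower (16 called, all among the 19), and the calls of CYP51A1, SREBF2 and SCAP were lost. The deviations of same-numbered libraries from their group means correlated at −0.172, 0.0348 and −0.0568. Those of differently numbered libraries ran from −0.157 to 0.178. With so few libraries these values cannot exclude a shared batch, and same-numbered libraries are not described as pairs. Of the named genes of neighbouring pathways, PGGT1B, MBTPS2, DGAT2 and LRP1 lost the call in some alternatives, DGAT2 and LRP1 with DESeq2 too (adjusted p = 0.0642 and 0.291), and none changed sign.

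Only members that never passed changed sign. Scaling by library totals gave log2 fold changes of 0.032 for MVK, 0.027 for PMVK, 0.013 for FDPS and 0.029 for NSDHL, limma-voom gave 0.0070 for PMVK, and the replicate block gave 0.0045 for MVK. Thinning all libraries to the smallest, chosen after seeing the data, gave −0.19 for TM7SF2 and −0.049 for MYLIP. Over the omission of single libraries the log2 fold change ran from −0.075 to 0.036 for MVK, −0.15 to 0.083 for PMVK, −0.065 to 0.0046 for FDPS, −0.011 to 0.16 for TM7SF2, −0.050 to 0.020 for NSDHL and −0.34 to 0.024 for HSD17B7. Depth limits the lowest members, since 3 counts are worth 5.44 normalized counts in RBFOX1 replicate 1.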
